A study of Homo sapiens with 6 samples.

Results

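The genes described here are 39 genes of the actomyosin and smooth muscle contractile apparatus, taken by symbol from a table of 60669 genes measured in LX-2 cells. LX-2 is an immortalised human cell line derived from hepatic stellate cells, labelled here as activated and of wild-type genotype. Cells grown in high-glucose medium with fetal calf serum were given either a commercial negative control siRNA (siCTL, 3 libraries) or an siRNA against ADAMTS12 (siADAMTS12, 3 libraries) with a lipid reagent, and were collected at 48 h. ADAMTS12 encodes a metalloprotease that cells release into the surrounding matrix. Both groups share the line, the medium, the transfection reagent and the time. A single siRNA sequence stands for the knockdown, and no untransfected library was analysed here. Of the 39 genes, 38 averaged 10 or more normalized counts across the 6 libraries, and these were tested together with all 15637 genes at that level. The exception was MYH11, the smooth muscle myosin heavy chain, at 2, 1 and 0 with siCTL and 0, 2 and 3 with siADAMTS12.

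Contractile force comes from filaments of myosin II pulling on filaments of actin. In non-muscle and smooth muscle cells, myosin light chain kinase switches the motor on by phosphorylating its regulatory light chain, and myosin phosphatase switches it off. Tropomyosins, caldesmon, calponins and transgelins sit along the actin filament and control access to it, actinins and filamins crosslink filaments, and cofilins and profilins turn over the actin pool. In the liver, a quiescent stellate cell that becomes a myofibroblast gains alpha smooth muscle actin stress fibres, and ACTA2 is the usual marker of that change. Many of these genes are targets of serum response factor (SRF), which binds the CArG box and is held in check through its cofactors MRTFA and MRTFB when free actin monomer is plentiful.

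Sequences of 2 kinds bear on these genes. The first is the siRNA, because bases 2 to 8 of its guide strand (the seed, in capitals below) can pair with unrelated transcripts in the manner of a microRNA. The sense strand comes from the labels, and the guide strand is its reverse complement without overhangs.
siADAMTS12 sense strand: gccaaaguuuggagggaaa
siADAMTS12 guide strand: uUUCCCUCcaaacuuuggc
The second kind is the CArG box (CC, then 6 bases that are each A or T, then GG, the same pattern on both strands). It was searched in RefSeq promoter windows of GRCh38.p14 that run from 250 bases before to 50 bases after each gene's start. Such windows were found for 34 of the 39 genes, and 8 of them (23.5%) held a box, against 1.29% of all 27305 windows and 1.09% of the 10904 windows of genes with a mean of at least 10. The boxes are shown in capitals with 8 bases on each side, read along the gene's strand, because 5 of these 8 genes are among those that fell and 1 is among those that rose. Of all genes tested, 15.5% fell and 11.5% rose. The share of falls among all genes with a box was not computed.
ACTC1, chr15:34795641-34795666, minus strand: gaaggggaCCAAATAAGGcaaggtgg
ACTG1, chr17:81512876-81512901, minus strand: aaagatcgCCATATATGGacatgttc
ACTG2, chr2:73892890-73892915, plus strand: aaaaaccaCCTTATATGGtaatattg
ACTG2, chr2:73892927-73892952, plus strand: tcagctggCCTTTTTAGGgactttgt
MYLK, chr3:123620625-123620650, minus strand: aaaccatcCCTTTTATGGgagttgaa
TPM4, chr19:16067357-16067382, plus strand: tcctaggtCCAAATAAGGcgagggct
CNN2, chr19:1026511-1026536, plus strand: cctccaggCCTTATAAGGacatttgc
FLNA, chrX:154374711-154374736, minus strand: caattttaCCAATTAAGGctttctcg
SRF, chr6:43171231-43171256, plus strand: ggggctcaCCATATAAGGagcggcct
SRF, chr6:43171251-43171276, plus strand: cggcctcgCCATAAAAGGaaacattg
The first base of the box lay between 10 bases (the second SRF box) and 173 bases (TPM4) before the RefSeq start. The MYLK window lies inside the annotated gene, 263783 bases from its outermost start in GENCODE, and the ACTG1 window lies 11048 bases from its outermost start. A match of letters is a description and was not tested as a binding site. Genes not shown include those without a window. Boxes outside the windows, or departing from this exact pattern, were not searched, so an unlisted gene may still have one.

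ADAMTS12 went from 13709, 12235 and 13423 normalized counts with siCTL to 4083, 3449 and 3687 with siADAMTS12, which left 28.5% (log2 fold change -1.81 ± 0.07 SE, limma adjusted p = 4.81e-08). The deposited columns summed to between 33.58 and 34.07 M (1e6) with siCTL and between 30.68 and 31.42 M with siADAMTS12, and read depth itself is not known from them. Over all genes tested, 2424 fell and 1798 rose at an adjusted p under 0.05. With the 6 columns scaled to the same total, 1546 fell and 3869 rose, and the median log2 fold change of all genes moved from 0.005 to 0.13. Of 11 stellate cell and fibroblast markers, 9 had a mean of at least 10. Their summed level was 326099 to 362087 with siCTL and 252645 to 265015 with siADAMTS12. COL1A1 and VIM made up most of that sum, whereas LRAT, the retinoid-esterifying enzyme of quiescent stellate cells, was at 0 in all 6 libraries and DES (desmin) was at 0 in 5 and at 5 in the sixth. PDGFRB (log2 fold change -0.80), PDGFRA (-0.92), VIM (-0.55) and LUM (-2.90) fell at a limma adjusted p under 0.05. COL1A1, COL1A2, COL3A1, RGS5 and DCN did not. With the replicate number as a block in the limma fit, COL1A1 (adjusted p = 0.0259), COL1A2 (0.00215), COL3A1 (0.0377) and RGS5 (0.0482) also fell. DCN did not pass there either (0.623). The lists for hepatocytes, endothelium, leukocytes and striated muscle each summed to at most 39 in any library. Of 6 smooth muscle markers, MYH11 and DES were near 0, and the list summed to 8496 to 9771 with siCTL and 7350 to 8358 with siADAMTS12. SMTN alone made up most of that sum, at 6670, 6822 and 7610 with siCTL. The cholangiocyte list reached 2232, from SOX9 and KRT7, with EPCAM and KRT19 at 7 or less. MYH11, CNN1 and LMOD1 of the smooth muscle list are among the 39 genes, and the part of these marker levels in the results below was not tested.

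Of the 38 contractile genes tested, 14 fell (36.8%, against a background of 15.5% of all genes tested) and 3 rose (7.89%, against 11.5%); over all genes 27% changed in either direction. In 21 of the 38 (55.3%, against 40.9% of all genes) the siCTL and siADAMTS12 libraries were fully apart. The 14 were ACTG1, ACTG2, ACTC1, MYL9, MYL12A, MYLK, ACTN1, PDLIM5, TAGLN, CALD1, TPM2, TPM4, CFL1 and CFL2, and the 3 were PPP1R12A, CNN2 and PFN2. The number of falls rests on the scaling and on single libraries: 6 fell with the columns scaled to the same total (15.8%, against 9.89%), 4 after quantile normalization (10.5%, against 13.3%), and 7 without siCTL replicate 3. Of the 14, CFL1 changed sign (0.04 after quantile normalization). The median log2 fold change was -0.18, against 0.005 over all genes. Contractile genes are abundant, and abundant genes fell more often: of the genes with a mean of at least 5000, 33.7% fell and 5.86% rose, and of the 28 contractile genes among them 12 fell (42.9%) and 1 rose. Their median was -0.19, against -0.11 for all genes at that level. The siCTL and siADAMTS12 libraries were fully apart in 740 of the 1433 genes at that level and in 15 of the 28 contractile genes. Most changes were small, since only CALD1 and ACTC1 fell and only CNN2 and PFN2 rose by more than 1.5-fold. RNA from a culture is a sum over cells, so fewer cells of a kind and less RNA per cell cannot be told apart.

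**Figure D1:**
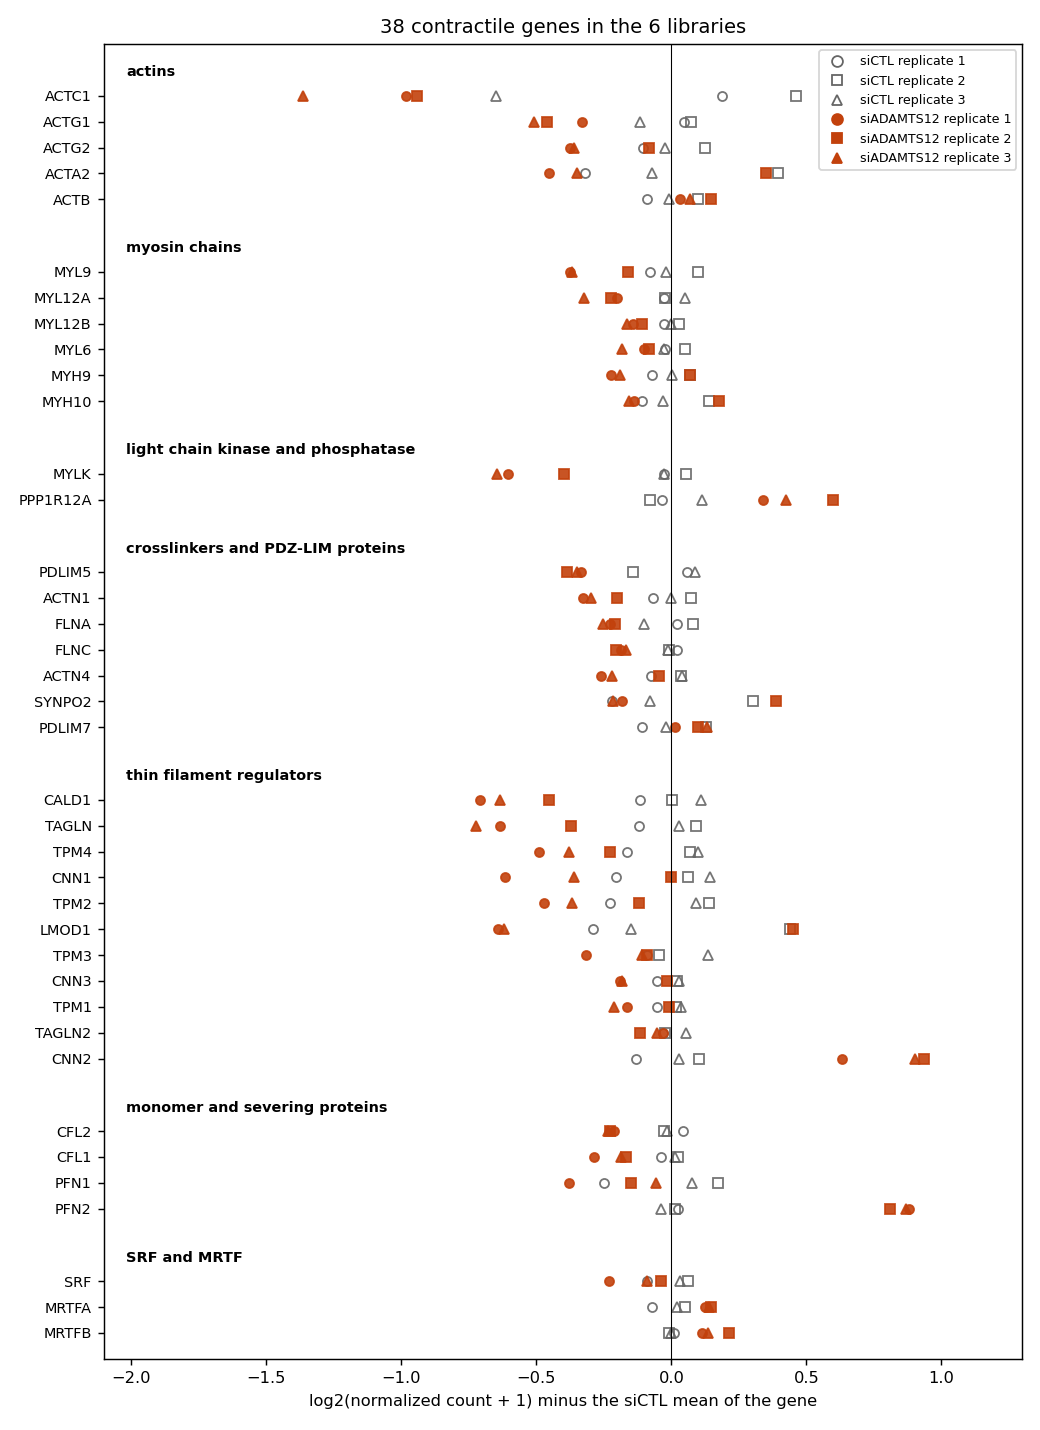
Level of 38 contractile genes in each library, as log2(normalized count + 1) minus the gene's siCTL mean (x axis), with genes grouped by role (y axis), open grey symbols for siCTL, filled red for siADAMTS12, and circles, squares and triangles for replicates 1, 2 and 3. CNN2, PFN2 and PPP1R12A stand to the right in all 3 siADAMTS12 libraries, ACTC1, CALD1, TAGLN and MYLK stand to the left, and in 20 rows both squares lie to the right of their group.

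Changes below are siADAMTS12 over siCTL on the log2(value + 1) scale with the moderated SE of limma, and p-values are 2-sided and adjusted over all genes by the Benjamini-Hochberg method. The words fell and rose are used only where the adjusted p was under 0.05.

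Among the actins, the cytoplasmic gamma actin ACTG1 and both the enteric and cardiac muscle actins fell, while the cytoplasmic beta actin ACTB and the smooth muscle alpha actin ACTA2 did not pass the test. ACTG1 (ENSG00000184009, chromosome 17, 81509971 to 81523847, minus strand, GRCh38) was at 201504, 205005 and 179861 with siCTL and at 155194, 141677 and 137315 with siADAMTS12 (-0.43 ± 0.09 SE, adjusted p = 0.00572). The 3 siADAMTS12 libraries were all below the lowest siCTL library. ACTB, its close relative, was at 139801, 159614 and 148018 against 152278, 164895 and 156036 (0.08, adjusted p = 0.542), with groups that overlapped. ACTC1, the cardiac alpha actin (ENSG00000159251, chromosome 15, 34788095 to 34795726, minus strand), was at 515, 622 and 288 against 228, 235 and 175, the largest decrease of the set (-1.10 ± 0.23, adjusted p = 0.00488). Its groups did not overlap, although siCTL replicate 3 lay well below the other 2 controls. ACTG2, the enteric smooth muscle actin, was at 6389, 7492 and 6761 against 5289, 6476 and 5348 (-0.27, adjusted p = 0.0381), and siADAMTS12 replicate 2 stood above siCTL replicate 1. The ACTG2 call was lost on leaving out siCTL 2 (adjusted p = 0.139), siCTL 3 (0.0840), siADAMTS12 1 (0.118) or siADAMTS12 3 (0.134), where the number is the replicate.

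ACTA2, the stellate cell activation marker (ENSG00000107796, chromosome 10, 88935074 to 88991339, minus strand), was at 8101, 13283 and 9609 with siCTL and at 7378, 12884 and 7933 with siADAMTS12. Replicate 2 was far above the other libraries in both groups, and the coefficient of variation was 25.8% and 32.3%. The means were 10331 ± 2665 and 9398 ± 3031 (SD, n = 3), a change of -0.15 with a 95% interval from -0.60 to 0.30 (adjusted p = 0.631). Each siADAMTS12 library lay below the siCTL library of the same number. With the replicate number as a block, the change was the same and the adjusted p was 0.0559. ACTA2 has exons that overlap those of FAS and ACTA2-AS1 on the opposite strand, and no source used here says whether reads were counted by strand.

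Neither myosin heavy chain that was tested passed, and the falls lay among the light chains. MYH9, the main non-muscle myosin heavy chain, was at 115713, 127525 and 121919 against 104271, 127598 and 106661 (-0.11, adjusted p = 0.423), and MYH10, the second heavy chain, had a change of -0.04 (adjusted p = 0.801). Both sets of libraries overlapped. MYL9, the regulatory light chain typical of smooth muscle, was at 52458, 59374 and 54708 against 42777, 49625 and 42979 (-0.30 ± 0.08 SE, adjusted p = 0.0204). The groups did not overlap. MYL12A, a non-muscle regulatory light chain, was at 25118, 25170 and 26540 against 22243, 21932 and 20431 (-0.25, adjusted p = 0.0138). Its neighbour on chromosome 18 and close relative MYL12B was at 21731, 22550 and 22087 against 20046, 20505 and 19757 (-0.14, adjusted p = 0.106), with no overlap between the groups and an adjusted p of 0.0405 with the replicate block. The essential light chain MYL6 had a change of -0.12 (adjusted p = 0.175). The MYL9 call was lost on leaving out siCTL 2 (adjusted p = 0.0799), siCTL 3 (0.0574), siADAMTS12 1 (0.0700) or siADAMTS12 3 (0.0786), and that of MYL12A on leaving out siCTL 3 (0.0625) or siADAMTS12 3 (0.0653).

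The kinase and the phosphatase subunit that act on those light chains moved in opposite directions. MYLK, myosin light chain kinase (ENSG00000065534, chromosome 3, 123610049 to 123884331, minus strand), was at 12539, 13282 and 12561 with siCTL and at 8407, 9715 and 8165 with siADAMTS12, which is 68.5% of the control mean (-0.55 ± 0.07 SE, adjusted p = 0.000214). PPP1R12A, the subunit that targets myosin phosphatase to myosin (ENSG00000058272, chromosome 12, 79773563 to 79935460, minus strand), was at 3369, 3269 and 3730 against 4362, 5225 and 4636, or 137% of the control mean (0.45 ± 0.08, adjusted p = 0.00129). In neither gene did the groups overlap, and in both siADAMTS12 replicate 2 was the highest of its group. Both genes have exons that overlap antisense genes, MYLK-AS1 and MYLK-AS2 in one case and PPP1R12A-AS1 in the other. Exons of ACTC1, MYL12A, TAGLN, TPM4, CFL1, CNN2 and PFN2, which also fell or rose, overlap genes on the opposite strand too. On the same strand, exons of PFN2 overlap those of ANKUB1, and exons of ACTN1 overlap HMGN1P3. Exons of MYL6 overlap MYL6B and those of MRTFB overlap TVP23CP2, also on the same strand.

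Of the 7 crosslinkers and PDZ-LIM proteins, ACTN1 and PDLIM5 fell, none rose and 5 did not pass. ACTN1, an actinin of stress fibres and adhesions, was at 64305, 70870 and 67383 against 53836, 58624 and 54832 (-0.28 ± 0.07 SE, adjusted p = 0.0183). PDLIM5, a PDZ-LIM scaffold that binds actinin, was at 9758, 8496 and 9976 against 7436, 7178 and 7359 (-0.36 ± 0.07, adjusted p = 0.0028). In both genes every siADAMTS12 library was below every siCTL library. The ACTN1 call was lost on leaving out siCTL 2 (adjusted p = 0.0687), siCTL 3 (0.0609), siADAMTS12 1 (0.0640) or siADAMTS12 3 (0.0622). FLNA, a filamin that crosslinks actin filaments into networks, was at 278712, 290672 and 255766 against 234352, 237797 and 230382 (-0.23, adjusted p = 0.0972). It had the largest normalized count, before any correction for length, in 6 of 6 libraries. FLNC, its muscle relative, was at 91087, 89177 and 88838 against 78887, 77890 and 79908 (-0.19, adjusted p = 0.0792). The groups were apart in both filamins. With the replicate block, FLNA (adjusted p = 0.0173), FLNC (0.0204) and ACTN4 (0.0268, from a change of -0.17 and an adjusted p of 0.106) also passed. ACTN4 passed as well without siADAMTS12 replicate 2 (0.0306). SYNPO2, a smooth muscle actin-bundling protein, had a change within 0.01 of 0 and replicate 2 highest in both groups, and PDLIM7 had a change of 0.08 (adjusted p = 0.429).

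Of 11 proteins that decorate or cap the thin filament, TAGLN, CALD1, TPM2 and TPM4 fell and CNN2 rose. CALD1, caldesmon (ENSG00000122786, chromosome 7, 134744252 to 134970728, plus strand), was at 33000, 35801 and 38589 with siCTL and at 21866, 26111 and 23021 with siADAMTS12, or 66.1% of the control mean (-0.60 ± 0.08 SE, adjusted p = 0.000338). TAGLN, the smooth muscle marker SM22 alpha (ENSG00000149591, chromosome 11, 117199321 to 117204782, plus strand), was at 30739, 35617 and 34087 against 21547, 25798 and 20219, or 67.3% (-0.58 ± 0.09, adjusted p = 0.000924). The groups were far apart in both genes. Its non-muscle relative TAGLN2 was at 17696, 17784 and 18786 against 17706, 16703 and 17436 (-0.07, adjusted p = 0.464), with overlapping groups.

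The 3 calponins did not move together. CNN2, the form found in many non-muscle cells (ENSG00000064666, chromosome 19, 1026581 to 1039068, plus strand), was at 7208, 8484 and 8054 with siCTL and at 12223, 15106 and 14748 with siADAMTS12. The means were 7915 ± 649 and 14026 ± 1571 (SD, n = 3), a 1.77-fold rise (0.82 ± 0.09 SE, adjusted p = 4.84e-05), and the lowest siADAMTS12 library stood well above the highest siCTL library. CNN1, the smooth muscle form, was at 930, 1120 and 1185 against 700, 1072 and 835 (-0.33, adjusted p = 0.108). Only siADAMTS12 replicate 2 reached the control range, and CNN1 passed with the replicate block (adjusted p = 0.0165) and without that library (0.0107). CNN3 was at 14868, 15651 and 15726 against 13504, 15237 and 13568 (-0.13, adjusted p = 0.176).

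Among the tropomyosins, TPM4 was at 63490, 74590 and 76119 against 50607, 60731 and 54653 (-0.37 ± 0.10 SE, adjusted p = 0.0147), with no overlap. TPM2, the muscle beta form, was at 18131, 23393 and 22624 against 15308, 19561 and 16448 (-0.32, adjusted p = 0.0496), close to the threshold and with overlapping groups. TPM1 had a change of -0.13 (adjusted p = 0.236) and TPM3 one of -0.17 (adjusted p = 0.147, and 0.0340 with the replicate block). The TPM2 call was lost on leaving out siCTL 2 (adjusted p = 0.169), siCTL 3 (0.163), siADAMTS12 1 (0.149) or siADAMTS12 3 (0.134), and that of TPM4 on leaving out siCTL 2 (0.0576), siCTL 3 (0.0706) or siADAMTS12 1 (0.0547). Of the 50-base windows of the TPM4 transcript, 22.9% occur in genes elsewhere in the annotation, so its reads could be split between copies. Such windows made up 11.3% for MYL12B, 10.3% for ACTB, 9.41% for MYL12A, 9.32% for TAGLN2, 8.86% for PFN1 and 7.33% for TPM3. The levels and family shares of these genes carry the same limit. LMOD1, a leiomodin that seeds actin filaments in smooth muscle, was at 259, 431 and 286 against 203, 434 and 206 (-0.27, adjusted p = 0.502). Replicate 2 was the highest in both groups. LMOD1 passed without siADAMTS12 replicate 2 (adjusted p = 0.0314) and did not pass with the replicate block (0.0828).

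Among the proteins that turn over actin, both cofilins fell (CFL1 stood at 0.04 after quantile normalization) and one of the 2 profilins rose. CFL2, the muscle cofilin, was at 5205, 4966 and 4997 against 4357, 4319 and 4298 (-0.23 ± 0.05 SE, adjusted p = 0.0101), with little spread within either group. CFL1, the main cofilin, was at 64877, 67863 and 67355 against 54723, 59321 and 58624 (-0.21, adjusted p = 0.0475), again without overlap. The CFL1 call was lost on leaving out any 1 library other than siADAMTS12 2, with adjusted p from 0.0827 (siCTL 1) to 0.157 (siADAMTS12 1). PFN2 (ENSG00000070087, chromosome 3, 149964904 to 150050788, minus strand), the profilin best known from the nervous system, was at 3387, 3354 and 3240 with siCTL and at 6126, 5828 and 6072 with siADAMTS12. The means were 3327 ± 77.1 and 6009 ± 159 (SD, n = 3), a 1.81-fold rise with the smallest adjusted p of the set (0.85 ± 0.06 SE, adjusted p = 1.04e-06). PFN1, the ubiquitous profilin, was at 43656, 58520 and 54734 against 39933, 46781 and 49902 (-0.19, adjusted p = 0.240, and 0.0251 with the replicate block).

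The transcription factors themselves did not pass the test. SRF was at 3697, 4106 and 4022 against 3358, 3830 and 3695 (-0.12, adjusted p = 0.224, 95% interval -0.27 to 0.03). MRTFA was at 1458, 1587 and 1556 against 1669, 1697 and 1687 (0.14, adjusted p = 0.129), and MRTFB was at 1632, 1611 and 1618 against 1753, 1877 and 1781 (0.15, adjusted p = 0.0803). The siADAMTS12 libraries were all above the siCTL libraries for both MRTF genes, and both passed with the columns scaled to the same total (0.26, adjusted p = 0.00761, and 0.28, adjusted p = 0.00413). SRF stood at 0.004 there, so its sign depended on the scaling. Among the genes with a CArG box shown above, ACTC1, ACTG1, ACTG2, MYLK and TPM4 fell, CNN2 rose, and FLNA and SRF did not pass. The MYLK and ACTG1 boxes are not at the outermost start of their genes, and that of MYLK lies deep inside the annotated gene. Of the 12 genes that fell and had a promoter window, 5 held a box. Of those 5, ACTC1 and MYLK also fell with equal totals and after quantile normalization, ACTG1 with equal totals only, and ACTG2 and TPM4 under neither. The share with a box among all genes that fell was not computed, and a link between box and change was not tested.

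Levels can be set beside each other between genes only per length of transcript. Per kilobase of a representative GENCODE 29 transcript, the siCTL means ran from 97194 for ACTG1 and 77639 for ACTB to 129 for ACTC1, 88.8 for SYNPO2, 81.9 for LMOD1 and 0.166 for MYH11. Of the genes best known from smooth muscle, MYL9 stood at 19679 per kilobase (rank 11 of 39), TAGLN at 15458, ACTA2 at 7658 (rank 20), ACTG2 at 4497 and CNN1 at 660. The non-muscle heavy chain MYH9 stood at 16113, MYH10 at 1301. The order depends on the transcript chosen for some genes. TPM1 moved from rank 3 to rank 20 when the length of all its annotated exons was used.

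The make-up of each family was compared as the share of its summed level per kilobase, which does not depend on scaling between libraries. Among the 5 actins, ACTB made up 39.7, 41.6 and 43.3% with siCTL and 47.9, 50.5 and 51.1% with siADAMTS12, and ACTG1 went from 52.0 ± 2.38% to 43.7 ± 2.69% (SD, n = 3). The share of ACTA2 was 4.07 ± 0.826% and 4.21 ± 1.23%, with overlapping groups. Among the calponins, CNN2 went from 31.8 ± 1.10% to 47.7 ± 2.15%, while CNN3 went from 62.4 ± 1.37% to 48.4 ± 2.29% and CNN1 from 5.77% to 3.92%. TAGLN went from 57.8 ± 1.77% to 49.0 ± 3.83% of the 2 transgelins, and PFN1 from 96.4% to 92.9% of the 2 profilins. PDLIM5 went from 26.2% to 20.7% of the sum of PDLIM5 and PDLIM7. Cofilin, filamin and heavy chain shares stayed within 1 percentage point: CFL1 was at 97.9% in both groups, FLNA at 76.5% and 75.9%, and MYH9 at 92.5% and 92.2%. The tropomyosin shares were 44.1% and 47.2% for TPM1, 15.3% and 14.4% for TPM2, 12.5% and 13.0% for TPM3, and 28.1% and 25.5% for TPM4. Of 25 shares computed, 12 did not overlap between the groups, 3 of them higher with siADAMTS12 (ACTB, MYL12B and CNN2). By level, the groups did not overlap in 40.9% of all genes tested. Shares of a family sum to a fixed total, so the 12 are not separate results. A family of 2 genes entered with its first gene only. The lower shares of TAGLN, ACTN1, PFN1 and PDLIM5 are equally higher shares of TAGLN2, ACTN4, PFN2 and PDLIM7. Each of these 12 had an exact 2-sided permutation p of 0.1, the smallest that 3 libraries against 3 allow, or 0.208 after Benjamini-Hochberg adjustment over the 25. The size of a share depends on the lengths used, and with the length of all annotated exons all 25 differences kept their sign.

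**Figure D2:**
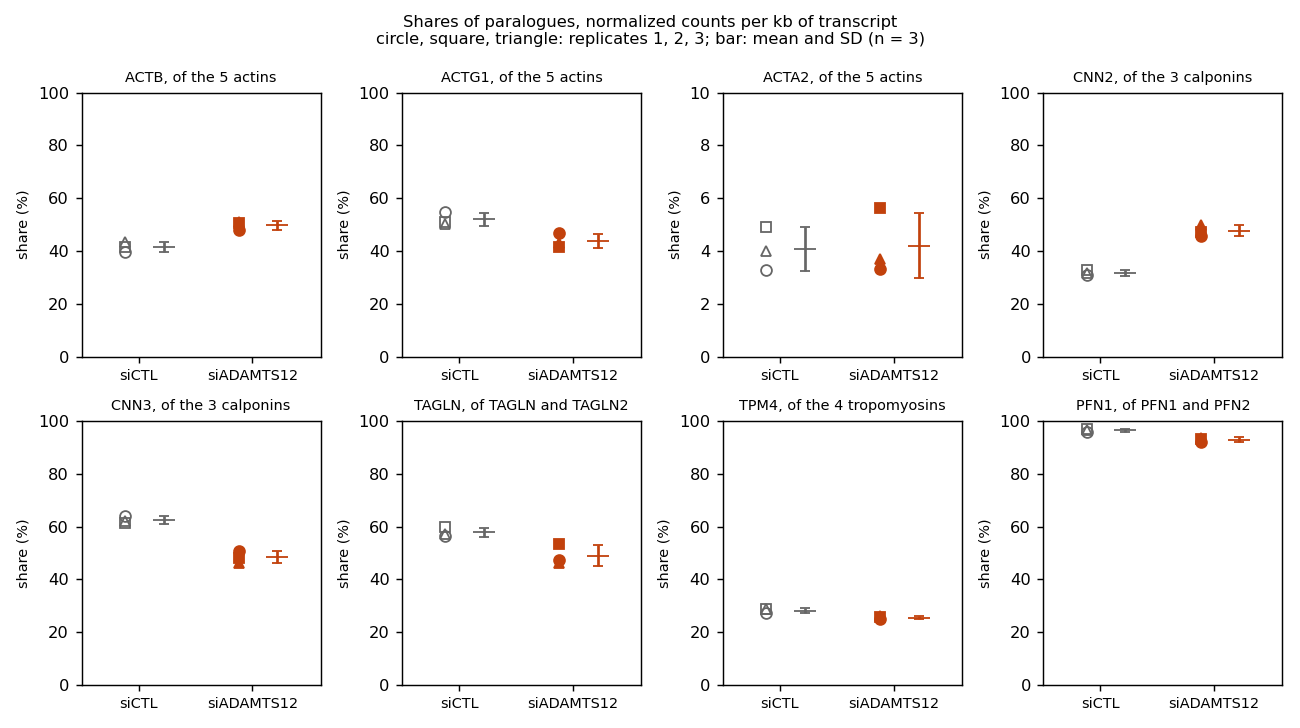
Share of a paralogue family's summed level (normalized counts per kilobase of transcript, in percent, y axis) held by the named genes in each siCTL and siADAMTS12 library (x axis), with the mean and SD over 3 libraries. With siADAMTS12 the ACTB and CNN2 shares were higher and the ACTG1, CNN3 and TAGLN shares lower without overlap, and the ACTA2 share, on a y axis that ends at 10, overlapped.

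Many of these genes followed the replicate number. Replicate 2 was the highest library in both groups for 20 of the 38 genes (52.6%), against 12.6% of all genes tested and 14.4% of genes with a mean of at least 5000. ACTA2, LMOD1 and SYNPO2 showed it most, and 4 of the 5 actins and 5 of the 6 myosin chains tested had it. Deviations from the group mean correlated between same-numbered libraries, across the 38 genes, at 0.89 (replicate 1), 0.72 (replicate 2) and 0.60 (replicate 3). Between libraries of different number the values lay from -0.71 to 0.15. A gene's deviations sum to 0 within a group, so higher values for same-numbered libraries bring lower ones for the others. The genes within a library share its preparation and are not independent replicates. The median deviation of the 38 genes was -0.07, 0.06 and 0.0009 in the siCTL libraries and -0.06, 0.10 and -0.03 in the siADAMTS12 libraries, in replicate order, while the median of all genes lay within 0.01 of 0 in each library. The labels do not say what the replicate number marks. Set pair by pair, 26 of the 38 genes (68.4%) were lower in all 3 siADAMTS12 libraries than in the siCTL library of the same number, against 30.7% of all genes, and 6 (15.8%) were higher in all 3, against 28.7%. With the replicate number as a block, 21 genes fell and 3 rose, against 19.6% and 15.5% of all genes. The 7 added were MYL12B, ACTN4, FLNA, FLNC, CNN1, TPM3 and PFN1, and none was lost. Of the 1433 genes with a mean of at least 5000, 627 fell and 125 rose with the block. Of the 28 contractile genes at that level, 18 fell and 1 rose. The pair by pair counts were not made at that level. Without replicate 2 of both groups, an alternative chosen after seeing the data, 13 fell and 3 rose, with TPM2 and CFL1 lost and LMOD1 added.

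**Figure D3:**
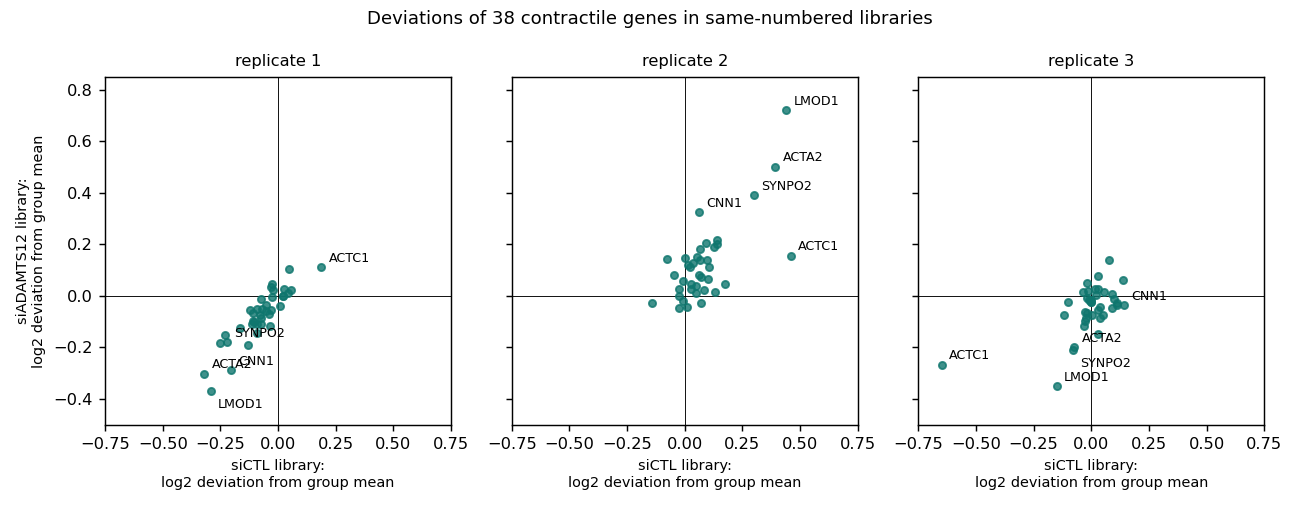
Deviation of each of 38 contractile genes from its group mean, in log2 units, in the siCTL library (x axis) and the siADAMTS12 library (y axis) of the same replicate number, 1 panel per number and 1 point per gene. In the replicate 2 panel most points lie to the upper right, with LMOD1, ACTA2 and SYNPO2 outermost, and in the replicate 1 panel most lie to the lower left.

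The number of falls depended on how the columns were scaled to each other. As deposited, 14 contractile genes fell and 3 rose. With the columns scaled to the same total, 6 fell (15.8%, against 9.89% of all genes) and 6 rose (15.8%, against 24.7%), and the median of the 38 genes was -0.06 where that of all genes was 0.13. After quantile normalization, which gives every library the same distribution of values, 4 fell (10.5%, against 13.3%) and 7 rose (18.4%, against 13.9%), with medians of 0.0076 for the 38 genes and 0.03 for all genes. ACTC1, MYLK, TAGLN and CALD1 fell, and CNN2, PFN2 and PPP1R12A rose, in all 14 alternatives run, which include both scalings and every library left out in turn. After quantile normalization they stood at -1.12, -0.39, -0.35, -0.36, 0.99, 0.95 and 0.54. ACTG1 fell with equal totals (-0.31, adjusted p = 0.0251) and did not pass after quantile normalization (-0.12, adjusted p = 0.403), and PDLIM5 did likewise (-0.23, adjusted p = 0.0227, and -0.20, adjusted p = 0.0553). ACTG2, MYL9, MYL12A, ACTN1, TPM2, TPM4, CFL1 and CFL2 passed under neither. The 4 genes added as higher after quantile normalization were ACTB (0.36, adjusted p = 0.0131), MYH9 (0.24, adjusted p = 0.0399), PDLIM7 (0.24, adjusted p = 0.0240) and MRTFB (0.18, adjusted p = 0.0484). PDLIM7 also passed with equal totals (0.21, adjusted p = 0.0432), as did both MRTF genes. FLNA has the largest value in each library, so quantile normalization sets it at 0.

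**Figure D4:**
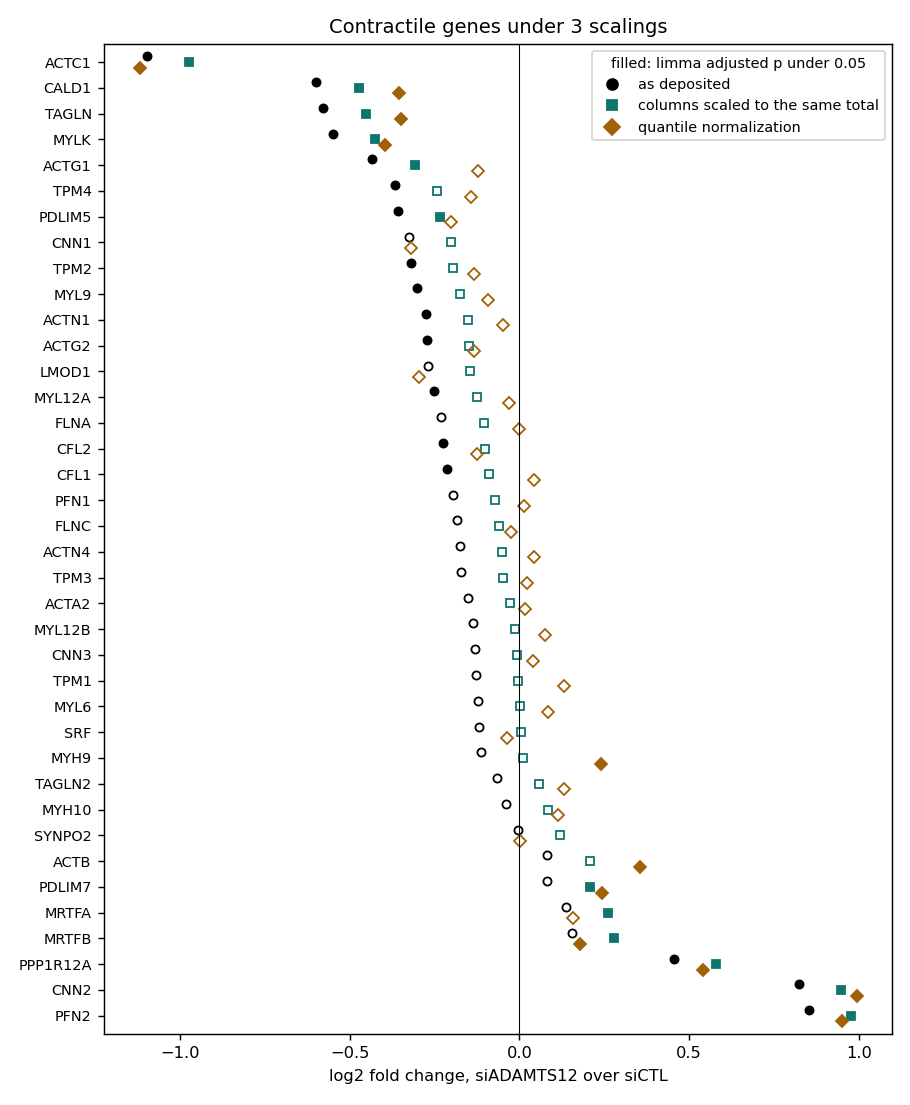
Log2 fold change of 38 contractile genes (x axis, siADAMTS12 over siCTL) under 3 scalings, with circles for the values as deposited, squares for columns scaled to the same total and diamonds for quantile normalization, filled where the limma adjusted p was under 0.05. The 4 genes at the top and the 3 at the bottom are filled under all 3, and most of the middle of the list moves across 0 or toward it.

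**Figure D5:**
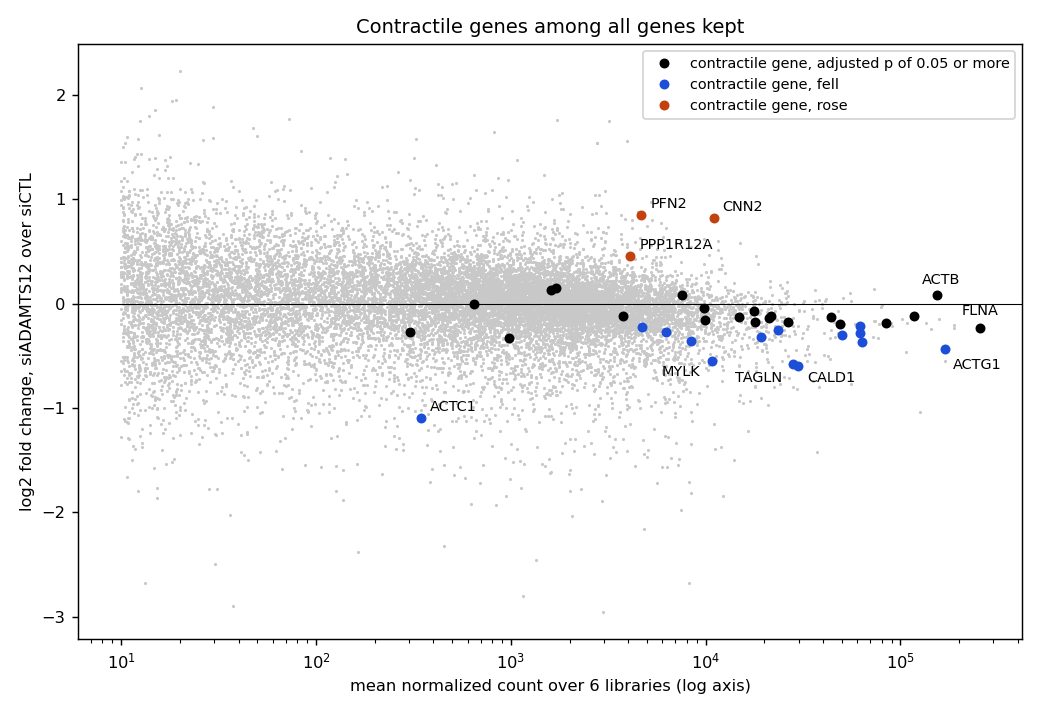
Log2 fold change (y axis, siADAMTS12 over siCTL) against the mean normalized count over 6 libraries (x axis, log scale) for 38 contractile genes (black where the adjusted p was 0.05 or more, blue where they fell, red where they rose) over all genes tested (grey). Of the genes with a mean of at least 5000, 33.7% fell and 5.86% rose, and CNN2 is the only contractile gene at that level that rose.

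Genes around the contractile apparatus were described from 2 lists. The first holds 42 other actin-binding, LIM and adhesion genes. Of the 40 tested, 21 fell and 3 rose, with a median of -0.23, where 15.5% of all genes fell, 11.5% rose and the median was 0.005. Among genes with a mean of at least 5000, 33.7% fell. The motor MYO1C, a myosin that links actin to membranes, was at 17881, 18216 and 17460 against 11769, 11885 and 11821 (-0.59 ± 0.06 SE, adjusted p = 1.69e-05). WDR1, which speeds cofilin-driven disassembly, went from a mean of 43355 to 29383 (-0.56), and the monomer-binding TWF1 from 6514 to 4494 (-0.54). SYNPO, an actin-bundling relative of SYNPO2, was at 567, 627 and 671 against 1143, 1510 and 1163 (1.02 ± 0.11, adjusted p = 4.47e-05). The other list holds 29 targets and cofactors of SRF, 8 of which are also in the first list. Of the 26 tested, 12 fell and 1 rose (2 rose with the replicate block), with a median of -0.23, against the same shares of all genes. MYOCD (myocardin), the SRF cofactor of smooth and cardiac muscle, was at 635, 845 and 685 against 230, 359 and 256 (-1.37 ± 0.16, adjusted p = 7.53e-05). PHLDB2 went from a mean of 5070 to 2694 (-0.91), the SRF partner ELK4 from 2088 to 1151 (-0.86) and the actin-oxidising enzyme MICAL2 from 9389 to 6778 (-0.47). The groups did not overlap in any of the 8 genes named from the lists. With equal column totals 9 and 7 genes of these lists fell, against 9.89% of all genes, and the same numbers fell after quantile normalization, against 13.3%.

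Matches to the siRNA guide were uncommon in these transcripts. GAGGGAA, which pairs with guide bases 2 to 8, was searched in the 3′ UTR of a representative transcript of 37 of the 39 genes. It was in 2 of them (5.41%), against 15.6% of 12610 genes searched and 30.7% of the genes that fell. The median 3′ UTR was 751 bases for the contractile genes and 1138 bases for all genes searched. No contractile gene held the 8-mer GAGGGAAA, which was in 6.15% of genes searched. The sites are shown with 8 bases on each side and the match in capitals, because MYL9 is the only contractile gene that fell and carried one.
MYL9, chr20:36550038-36550060, plus strand: aggggacgGAGGGAAtgggcctc
SRF, chr6:43179809-43179831, plus strand: ctgggttgGAGGGAAccaccagc
SRF, chr6:43180228-43180250, plus strand: gctagggaGAGGGAAgagggaga
Of the 14 genes that fell, 1 (7.14%) held the 7-mer and 3 more (MYLK, PDLIM5 and TPM4) held AGGGAA, which pairs with guide bases 2 to 7, as did ACTN4, FLNC and MRTFB among those that did not pass. ACTC1, CALD1, TAGLN, ACTG1, ACTG2, MYL12A, ACTN1, TPM2, CFL1 and CFL2 held neither in the transcripts searched. CNN2, PFN2 and PPP1R12A, which rose, held neither. MYL9 held AGGGAA 6 times, its 7-mer site included, and PDLIM5 and SRF held it 2 times each. MYLK, TPM4, ACTN4, FLNC and MRTFB held it 1 time each. In the surrounding lists, the 7-mer was in 4 of the 19 falls searched of the actin-binding list (CSRP1, WDR1, VASP and ENAH) and in 3 of the 10 of the SRF list (CSRP1, PHLDB2 and ELK4), and also in SYNPO, which rose. In all, 6 of 38 and 4 of 24 genes searched in these lists carried it. MYOCD and MICAL2 were not searched. What part the seed has in any of these changes was not tested.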

How the data were processed

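Stranded poly(A) RNA-seq libraries of LX-2 cells were made from total RNA, per the labels' protocols, with 3 libraries per group at 48 h. Per the submitters' processing notes, the tools were STAR, HTSeq and DESeq2, without versions, and the build was GRCh38. Which gene annotation was counted, and whether by strand, is not given in the sources used here. Values were deposited as a score, namely normalized counts written as whole numbers by the authors, so no count model was fitted and depth is unknown. All 6 value columns matched 1 sample each. The labels do not call the replicates separate cultures. The p-values therefore measure only the scatter of these libraries, which may be technical.

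Values were analysed as log2(value + 1), which understates the changes of low genes, for 15637 of 60669 genes with a mean of at least 10. The test was limma 3.58.1 (R 4.3.3; eBayes with an intensity trend) on the 6 libraries, with no covariate besides group, and Benjamini-Hochberg adjustment was made over all genes kept, with a threshold of 0.05. The fit was tested on simulated counts with no replicate effect and no scaling difference between columns, so that test does not cover these features of the data. The 39 genes, the pathway and marker lists and the tests were chosen with earlier results of these data known. Named genes are all 39, ADAMTS12, and up to 4 genes of each pathway list with the smallest adjusted p among those past the threshold. Single markers, CSRP1, VASP and ENAH were named after their values were seen. Results of 1 pathway list are not reported here.

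Deviations from the group means correlated across all genes at 0.37, 0.13 and 0.13 for libraries of one number and at -0.19 to 0.06 for other pairs, so blocking by replicate number was run as an alternative. Deviations of a gene cancel out within a group, so the values for other pairs are not separate evidence. The numbers come from the sample titles. Shares used transcript lengths from GENCODE 29, with 1 transcript per gene chosen by APPRIS tag, basic set and 3′ UTR length, and an exact permutation test in scipy 1.17.1. Promoter windows come from RefSeq (GRCh38.p14), with 1 window per gene. Other alternatives were a pseudocount of 8, no minimum mean or one of 50, quantile normalization, columns scaled to the same total, no intensity trend, each library left out, and replicate 2 of both groups left out. The last, and shares by all annotated exons, were added after seeing the data.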

Additional observations from a re-analysis of the deposited data

How the results depend on the processing

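Of the 38 contractile genes tested, 7 were called in all 14 alternatives, 8 in none, and 23 kept their sign in all 14, which leaves out FLNA, set at 0 by quantile normalization. The limits are 3 libraries per group, scaling done before deposit, and unknown read depth, so small shifts of abundant genes rest on the scaling. After quantile normalization 4 contractile genes fell and 7 rose, their median was 0.0076, and 9 and 7 genes fell in the actin-linked and SRF lists. Signs turned there for ACTA2 (0.0167), MYH9 (0.24), MYH10 (0.11), MYL6 (0.0849), MYL12B (0.0766), ACTN4 (0.0414), SYNPO2 (0.001), TAGLN2 (0.13), CNN3 (0.0394), TPM1 (0.13), TPM3 (0.0210), CFL1 (0.0430) and PFN1 (0.0142). With equal column totals 1546 of all genes fell and 3869 rose, 6 contractile genes fell and 6 rose with a median of -0.0555, and the lists had 9 and 7 falls and, for SRF targets, 2 rises. Signs turned there for MYH9 (0.0103), MYH10 (0.0846), MYL6 (0.0026), SYNPO2 (0.12), TAGLN2 (0.0586) and SRF (0.0039). Without the intensity trend 9 contractile genes fell, 13 actin-linked genes fell and 0 SRF targets rose. No minimum mean, which tests 27621 genes, also gave 0 SRF targets that rose. The replicate block and leaving out replicate 2 of both groups gave 2 SRF targets that rose. The block added the 7 contractile calls named above and changed no other call among these genes. Leaving out 1 library gave 7 to 17 contractile genes that fell and 3 that rose, 1872 to 2364 falls and 1230 to 1623 rises over all genes, 9 to 14 falls and 0 to 2 rises among SRF targets, and 13 to 20 falls among actin-linked genes. Signs turned without siCTL replicate 2 for ACTA2, MYH10 and SYNPO2, and without siADAMTS12 replicate 1 or 3 for MYH10 and SYNPO2, over ranges of -0.40 to 0.0450, -0.15 to 0.0302 and -0.20 to 0.15. For the differences in shares, in percentage points, the sign turned for MYL12A without length (0.0193) and, with 1 library left out, for ACTA2 (range -0.56 to 0.59), MYH11 (-0.0001 to 0.0016), FLNA (-1.11 to 0.0022), CFL1 (-0.0417 to 0.0748) and MRTFA (-0.79 to 0.16). The cause was not tested.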
